A study of Mus musculus with 16 samples.

Results

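Solute carriers (SLC proteins) are the membrane transporters that move amino acids, sugars, nucleosides, ions, metals and metabolites across the cell surface and the membranes of organelles. The genes described here were chosen by name and by total count: symbols that begin with Slc and a digit, with at least 500 raw counts summed over all 16 libraries, without Slc2a1, Slc2a3, Slc16a1, Slc16a3 and Slc19a1. This left 148 of the 375 such symbols in the table of 35976 genes, with 222 under the count minimum and 5 left out by name. All 148 were among the 13891 genes tested. The total count chose the genes, so their overall abundance is not a finding, and the gates took no part in the choice. Just inside the minimum were Slc44a1 with 505 counts, Slc26a8 with 534 and Slc5a4b with 541, and just outside it were Slc37a4 with 499, Slc25a30 with 495 and Slc23a1 with 466. Of the 148 symbols, 4 belong to proteins that are not transporters: Slc9a3r1 and Slc9a3r2 encode scaffolds that bind sodium-proton exchangers, Slc4a1ap encodes an adaptor of an anion exchanger, and Slc7a6os is the neighbour of Slc7a6 on the opposite strand. These 4 passed the test in none of the comparisons below.

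The libraries came from neural tube organoids, which are small cultured models of the embryonic neural tube, on day 4 of culture. They were grown from the R1 line of mouse embryonic stem cells with a FOXA2-Venus reporter, in which the fluorescent protein Venus reports FOXA2, the transcription factor of the floor plate at the ventral midline. All groups carried the reporter and had retinoic acid for 18 hours. Cells were grouped by FOXA2 level into the negative, low, medium and high gates, with 4 libraries each, and the comparisons ask how gene expression differs with FOXA2 level. All libraries come from 1 cell line. Whether the 4 libraries of a gate are separate cultures is not stated, and p-values reflect only how far these libraries spread, part of which may be technical.

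Most solute carriers move their substrate down a gradient or couple it to sodium, protons or another solute, and the families are numbered by sequence and substrate. Several work as pairs: Slc3a2 encodes a heavy chain (CD98) that carries light chains such as Slc7a5 and Slc7a7 to the cell surface. The Slc25 family lies in the mitochondrial inner membrane, the Slc35 family in the Golgi and endoplasmic reticulum, and the Slc30, Slc31 and Slc39 families move zinc, copper and other metals.

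Library totals ran from 3268948 to 9961032 counts, and the 148 genes held between 0.551% and 0.611% of each library. Levels are given as CPM, counts scaled to the size of the library after TMM correction. The method reads the 3′ ends of transcripts, so a level is a count of transcript ends, and levels of different genes are not set against each other here. In the library with the fewest counts, 1 count equalled 0.304 CPM and the 3 counts that a zero still allows equalled 0.913 CPM, counting error only. Foxa2 itself followed the labels, with 2.91 ± 1.68 CPM in negative, 11.9 ± 3.02 in low, 52.0 ± 9.36 in medium and 113 ± 18.2 in high libraries (SD, n = 4). Some libraries lay apart from their gates on a principal component: low 1, medium 2 and negative 3 on the third (29.6, 36.5 and 18.2) and high 2 on the second (36.5).

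High and negative gates were compared first. Of the 148 genes, 10 were higher in the high gate (6.76%) and 21 were lower (14.2%) by edgeR's quasi-likelihood test, at an adjusted p under 0.05 over all 13891 genes. Of all genes tested, 8.42% were called higher and 8.55% lower. Among the 10407 tested genes that also had 500 counts or more, the shares were 9.21% and 8.47%. The median log2 fold change of the 148 was 0.02, against 0.00 for all genes tested. The share called higher was therefore near that of other genes, and the share called lower was above it, with no test of that difference made. Groups did not overlap upwards in 14 solute carriers (9.46%), against 10.5% of all genes, and downwards in 24 (16.2%), against 11.1%. Of the 21 genes called lower, 13 had gate means that fell in gate order and 18 had groups that did not overlap. Of the 10 called higher, 4 had gate means that went up in gate order and 8 had groups that did not overlap. The same high and negative libraries chose these genes, which favours groups without overlap. The matching shares among all called genes were not worked out.

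The count of higher genes rested on single libraries more than the count of lower genes. Without high 2 it was 5, and without negative 3 and high 2 together it was 4, whereas the count of lower genes ranged from 16 to 23 over the fits that left out each library in turn. Of the 10 genes called higher, 3 kept the call under all 24 alternatives run (Slc24a3, Slc31a1 and Slc31a2). Of the 21 called lower, 14 did.

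Genes of other cell states moved with the gates too. The shares of all genes tested to read them against are 8.42% higher and 8.55% lower in high versus negative. The summed level of 10 pluripotency genes lay at 617 to 1064 CPM in negative libraries and 99.8 to 187 in low ones. It lay at 61.6 to 86.9 CPM in medium libraries and 55.4 to 85.2 in high ones. Of these genes 9 were tested, and 8 were called lower and 0 higher in high versus negative. Among neural progenitor genes, 6 of 6 tested were lower and 0 higher, with summed levels of 83.5 to 115 CPM in the high gate and 310 to 364 CPM in the negative gate. Sox1 and Sox2, which define neural progenitors, were listed at 0 counts in all 16 libraries. Whether their reads were left out in counting was not tested, so these zeros are not read as absence from the cells. Floor plate genes, Foxa2 included, were higher in 6 of 6. Of 7 endoderm genes tested, 2 were higher and 0 lower. All 12 listed endoderm genes summed to 183 to 208 CPM in the high gate and 50.0 to 56.9 CPM in the negative gate. Sox17 held most of that sum, with 134 ± 14.5 CPM in the high gate and 11.7 ± 3.02 CPM in the negative gate, while Hnf4a, Gata6, Afp and Cubn were too low to test. Of 4 neuron genes tested, 3 were lower and 0 higher, of 4 mesoderm and endothelium genes 2 were higher and 1 lower, and of 3 neural crest genes 0 were called in edgeR. The part of these cell states in the results below was not tested. In bulk libraries, fewer cells of a type and less RNA per cell cannot be told apart.

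By substrate, the calls were spread over most classes. In high versus negative, 8.42% of all genes tested were called higher and 8.55% lower, and no class was tested against these shares. Class medians of the log2 fold change ran from -0.35 (monocarboxylates, dicarboxylates and peptides) to 0.23 (nucleosides), against 0.00 for all genes tested. Classes hold every symbol of a family, so the amino acid class includes Slc7a6os. The ion class includes Slc9a3r1, Slc9a3r2 and Slc4a1ap. Amino acid carriers had 1 higher and 5 lower of 19, nucleoside carriers 1 and 2 of 5, and carriers of fatty acids, bile acids, organic ions and vesicular amines 2 and 3 of 9. Mitochondrial carriers had 1 higher and 4 lower of 30, ion carriers 2 and 1 of 24, and metal carriers 2 and 2 of 21. Sugar carriers had 1 of each among 6. Carriers of monocarboxylates and peptides, of phosphate and of nucleotide sugars had 1 lower and 0 higher of 5, 3 and 19. Vitamin and choline carriers, and the sodium and chloride coupled Slc6 pair, had 0 calls of 5 and of 2.

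**Figure D1:**
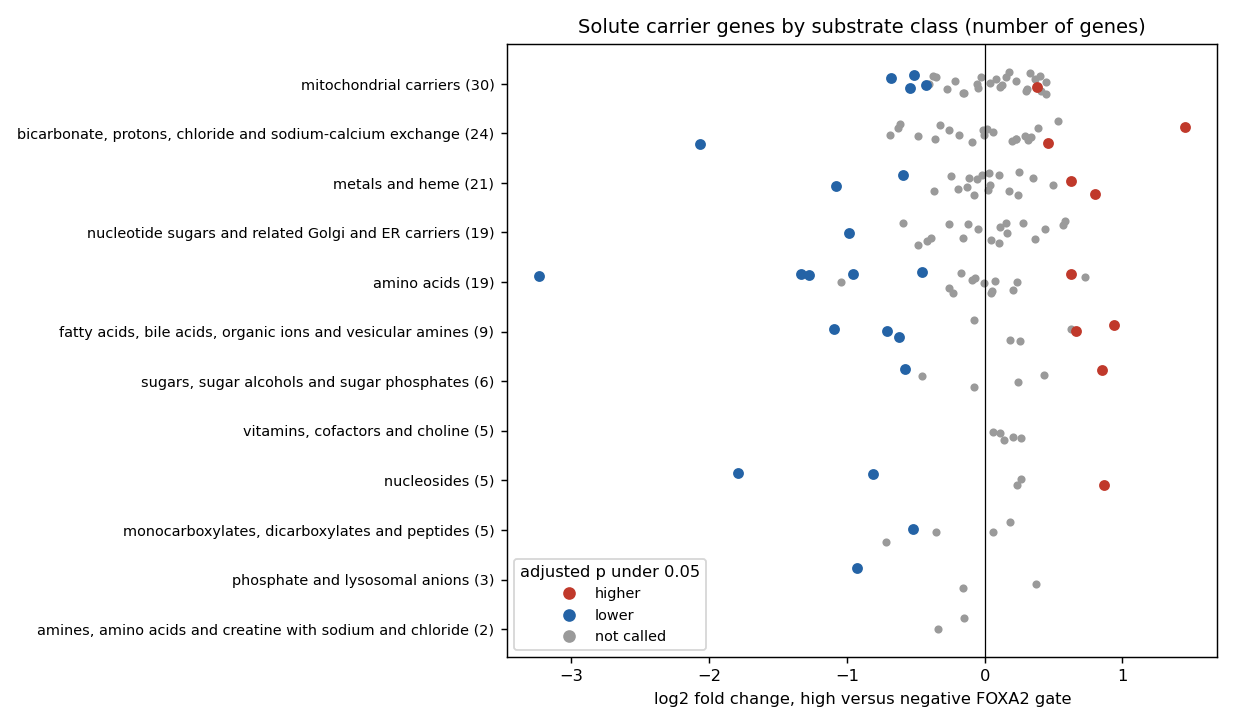
Log2 fold change of each of the 148 solute carrier genes between the high and the negative gate (x axis), by substrate class (rows, with the number of genes), coloured by the edgeR call; vertical jitter within a row has no meaning. Slc7a3 at -3.23 and Slc4a5 at -2.07 lie at the left end, Slc24a3 at 1.46 at the right end, and most genes are grey, within 1 log2 unit of 0.

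The amino acid class summed to 667, 646, 662 and 706 CPM in the high libraries, against 803, 786, 759 and 783 CPM in the negative ones, without overlap. The largest part of this fall was that of 1 gene, the CD98 heavy chain Slc3a2, at 175 ± 8.62 CPM in the high gate and 240 ± 20.4 CPM in the negative gate. Of the 19 genes of the class, 13 were not called, and the class median log2 fold change was -0.09. The sums also include Slc7a6os, which is not a transporter, at 49.7 ± 3.88 CPM in the high gate and 52.1 ± 3.72 CPM in the negative gate. Slc7a3 was the most changed gene of the class. Slc7a1 and Slc7a5 came next, with close log2 fold changes of -1.33 (SE 0.345) and -1.28 (SE 0.300). Slc7a3 (CAT3, a carrier of arginine and lysine; chrX:101079210-101086020, minus strand, GRCm38) had 27.2, 34.7, 26.4 and 17.6 CPM in negative libraries and 4.69, 17.5, 8.05 and 5.51 CPM in low libraries. For Slc7a3, medium libraries had 5.51, 9.40, 5.88 and 2.83 CPM and high libraries 2.16, 4.05, 3.08 and 1.83 CPM. It was lower in every low, medium and high library than in every negative one (log2 fold change -3.23 with SE 0.427, edgeR adjusted p = 2e-05 for high versus negative). The change against negative was already -1.59 in the low gate (edgeR adjusted p = 0.0152) and was -2.16 in the medium gate (edgeR adjusted p = 7.73e-04). Low 2 was the highest low library, near the lowest negative one, and the low gate lost its call without low 3 or low 4 (edgeR adjusted p 0.0536 to 0.0539) and in a fit of the low and negative gates alone (0.0646). Slc7a1 (CAT1, the general arginine carrier of growing cells; chr5:148327410-148399904, minus strand) had 2.83, 2.78, 4.93 and 2.74 CPM in the high gate, against 11.0, 6.60, 8.92 and 7.88 in the negative gate, with no overlap (log2 fold change -1.33 with SE 0.345, edgeR adjusted p = 0.00666). With every library thinned to the smallest total, its adjusted p was 0.0508.

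The CD98 pair fell as well, by different amounts. Slc7a5 (LAT1, the light chain that takes up leucine and other large neutral amino acids; chr8:121881150-121907694, minus strand) had 7.78, 7.64, 8.37 and 7.88 CPM in negative libraries and 4.05, 6.01, 7.48 and 8.99 CPM in low libraries. For Slc7a5, medium libraries had 3.94, 5.44, 5.70 and 6.66 CPM and high libraries 2.49, 2.78, 4.93 and 2.43 CPM. High libraries lay below all negative ones, while low and negative libraries overlapped (log2 fold change -1.28 with SE 0.300, edgeR adjusted p = 0.00292). Slc3a2, the heavy chain (chr19:8706882-8723369, minus strand), had 171, 166, 176 and 186 CPM in the high gate and 253, 239.9, 211 and 255 CPM in the negative gate (log2 fold change -0.46 with SE 0.108, edgeR adjusted p = 0.00298). In the medium gate Slc3a2 measured 181, 173, 160.2 and 209 CPM, below every negative library (log2 fold change -0.41 with SE 0.107, edgeR adjusted p = 0.0133), a call lost without medium 3 (edgeR adjusted p = 0.0626). Slc7a7, the light chain for export of cationic amino acids, averaged 9.09 ± 1.32 CPM in the high gate and 18.6 ± 4.67 CPM in the negative gate (SD, n = 4) and just missed the threshold (log2 fold change -1.04 with SE 0.358, edgeR adjusted p = 0.0520), although DESeq2 and RLE scaling each called it lower. The last 500 bases of Slc7a7 overlap Oxa1l on the other strand, and, since no source used here gives the strand setting, reads of the 2 genes cannot be told apart. Slc7a6, a further CD98 light chain, was at 14.8 ± 2.41 CPM in the high gate and 15.6 ± 1.36 in the negative gate (edgeR adjusted p = 0.802).

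Among carriers of neutral amino acids, Slc1a4 (ASCT1, an exchanger of serine and alanine; chr11:20302180-20332713, minus strand) fell to 5.16, 7.08, 5.24 and 5.48 CPM in the high gate, against 10.7, 11.6, 12.4 and 9.73 CPM in the negative gate, with no overlap (log2 fold change -0.96 with SE 0.256, edgeR adjusted p = 0.00864). Its relative Slc1a5 (ASCT2, a glutamine carrier) was at 59.9 ± 4.83 CPM in the high gate and 70.4 ± 7.69 CPM in the negative gate, with overlapping libraries (log2 fold change -0.23 with SE 0.157, edgeR adjusted p = 0.360). The glutamine carriers Slc38a1 and Slc38a2 had log2 fold changes of 0.05 (SE 0.107) and -0.00 (SE 0.129), neither called. Slc38a6, of the same family, was the 1 amino acid carrier called higher, with 14.5, 19.2, 15.0 and 19.2 CPM in the high gate and 11.7, 11.6, 11.8 and 8.60 CPM in the negative gate (log2 fold change 0.63 with SE 0.214, edgeR adjusted p = 0.0406). Slc38a6 lost its call without negative 1, negative 2, negative 3, negative 4, high 2 or high 4 (edgeR adjusted p 0.0540 to 0.143), and without negative 3 and high 2 together (0.125). Slc1a3 (GLAST, the glutamate carrier of radial glia) averaged 9.61 ± 2.90 CPM in the high gate and 5.86 ± 1.36 CPM in the negative gate (SD, n = 4) and was not called (log2 fold change 0.73 with SE 0.261, edgeR adjusted p = 0.0509).

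**Figure D2:**
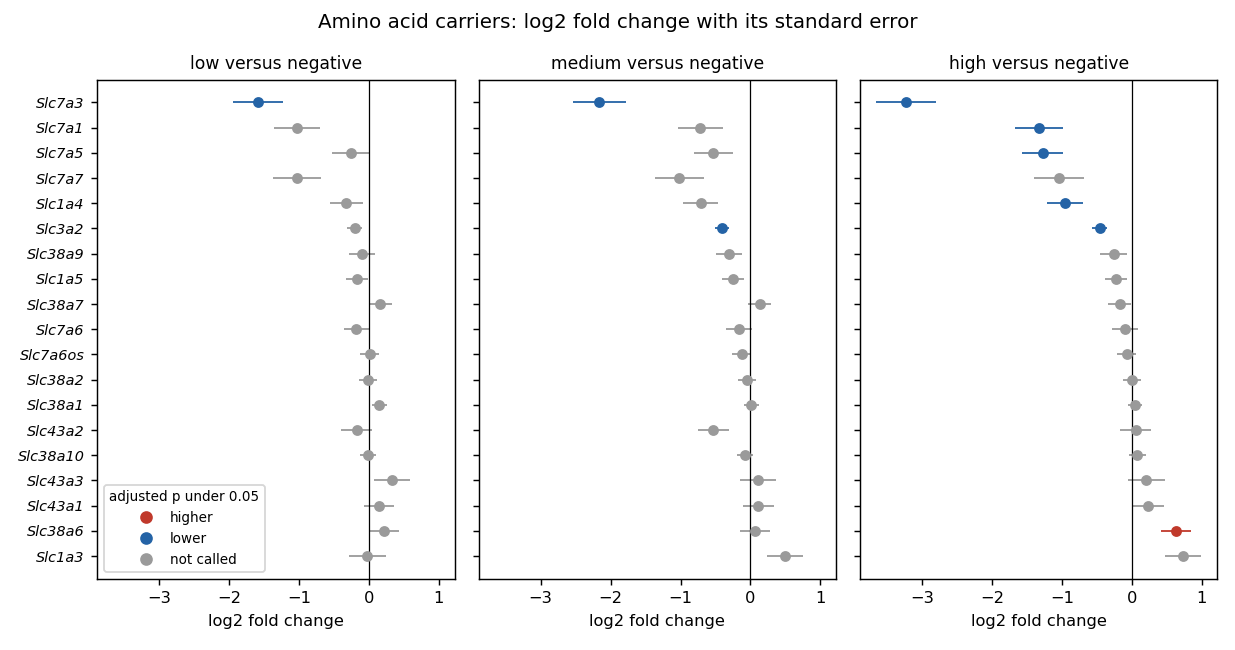
Log2 fold change (points) with its standard error (bars) of the 19 amino acid genes in the low, medium and high gate against the negative gate, 4 libraries a gate, coloured by the edgeR call. Slc7a3 was called lower in all 3 panels and lies farther left from low to high, at -1.59, -2.16 and -3.23, while Slc1a4, Slc7a1 and Slc7a5 were called against negative in the high gate alone. Between the high and the low gate, Slc7a3 and Slc7a5 were called lower (edgeR adjusted p = 0.0303 and 0.0353) and Slc1a4 and Slc7a1 were not (0.161 and 0.757).

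Several of these carriers are known targets of ATF4, the transcription factor that turns on amino acid uptake and synthesis when amino acids are scarce. In a list of 21 other ATF4-linked genes, 9 were called lower and 0 higher in the high gate, where 8.55% of all genes were lower. In each of the medium and low gates 7 were lower and 0 higher, where 4.22% and 2.29% of all genes were lower. The summed level of the list ran from 1394 to 1524 CPM in the high gate and from 2073 to 2438 CPM in the negative gate. Eif4ebp1, a brake on translation that made up much of this sum, averaged 687 ± 43.8 CPM in the high gate and 1256 ± 121 CPM in the negative gate (log2 fold change -0.87 with SE 0.0986, edgeR adjusted p = 1.11e-07). Psat1, an enzyme of serine synthesis, had 66.9 ± 4.88 CPM in the high gate and 117 ± 15.1 in the negative gate (log2 fold change -0.81 with SE 0.121, edgeR adjusted p = 9.42e-06). Asns, asparagine synthetase, had 97.5 ± 11.2 and 143 ± 17.0 CPM in the same gates (log2 fold change -0.55 with SE 0.120, edgeR adjusted p = 0.00141). Trib3, Chac1, Mthfd2, Cebpb, Nupr1 and Pycr1 were the others called lower. Atf4 itself was not called (log2 fold change -0.25 with SE 0.126, edgeR adjusted p = 0.182), and Phgdh, Psph and Sesn2 were not either (edgeR adjusted p from 0.140 to 0.875). Among the listed genes not called, log2 fold changes ran from -1.53 for Stc2 to 0.84 for Atf3, with Phgdh at 0.29. Whether ATF4 had a part in these changes was not tested.

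Nucleoside carriers changed in both directions. Their summed level was 78.0, 82.5, 86.3 and 73.7 CPM in the high libraries, against 110, 120, 103 and 105 CPM in the negative ones, without overlap. Slc28a1 (CNT1, which takes up pyrimidine nucleosides with sodium; chr7:81114799-81170416, plus strand) had 11.2, 16.0, 11.3 and 10.3 CPM in negative libraries and 2.79, 4.77, 5.51 and 6.96 CPM in low libraries. For Slc28a1, medium libraries had 3.74, 4.12, 7.43 and 9.49 CPM and high libraries 4.49, 2.02, 3.39 and 3.96 CPM. Every library of the 3 gates with FOXA2 lay below every negative library, with log2 fold changes against negative of -1.28, -0.95 and -1.79 from low to high (edgeR adjusted p = 0.00952, 0.0402 and 1.54e-04). Slc28a1 lost its low gate call without negative 2 or low 1 (edgeR adjusted p 0.0548 to 0.0570). Its medium gate call was lost without negative 1, negative 2, negative 3, medium 1, medium 2 or medium 3 (edgeR adjusted p 0.0551 to 0.154), without low 1 and medium 2 together (edgeR adjusted p = 0.094), without negative 3 and high 2 together (0.0539) and after thinning (0.0742).

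Slc29a1 (ENT1, the main equilibrative nucleoside carrier of the cell surface; chr17:45585200-45599606, minus strand) had 75.7, 76.7, 56.6 and 66.1 CPM in negative libraries and 35.7, 36.9, 51.0 and 47.0 CPM in low libraries. For Slc29a1, medium libraries had 42.9, 34.6, 56.5 and 46.9 CPM and high libraries 36.6, 43.8, 45.6 and 29.8 CPM. It too stepped down between the negative and the low gate, and its groups did not overlap with negative in any of the 3 (log2 fold change -0.81 with SE 0.158, edgeR adjusted p = 3.95e-04 for high versus negative). Against negative, the low gate had a log2 fold change of -0.69 with SE 0.155 and edgeR adjusted p = 0.00675. Slc29a3 (ENT3, the nucleoside carrier of lysosomes; chr10:60712072-60752794, minus strand) went the other way, with 8.31, 15.4, 12.8 and 6.70 CPM in the high gate and 4.70, 4.86, 8.01 and 6.25 CPM in the negative gate (log2 fold change 0.87 with SE 0.273, edgeR adjusted p = 0.0262). High 4 lay within the range of the negative gate, and Slc29a3 lost its call without negative 1, negative 2, high 2 or high 3 (edgeR adjusted p 0.0787 to 0.127), and without negative 3 and high 2 together (0.0752). Slc29a2 and Slc29a4, the remaining nucleoside genes, were not called in any comparison.

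The promoters of these genes were searched for short motifs chosen after the values were seen. RefSeq (GRCm38.p6) gave a promoter, 250 bases before to 50 after the start, for 114 of the 148 genes. The 27025 genes set beside them were all genes with a promoter, with no count minimum. The shares below are therefore not a like-for-like comparison. The E-box CACGTG, which reads the same on both strands and is bound by helix-loop-helix factors such as MYC and USF, was in the promoter of 19 of the 114 (16.7%), against 8.09% of 27025 genes. It was in 4 of 16 genes called lower in the high gate with a promoter (Slc25a1, Slc29a1, Slc20a1 and Slc22a4) and in 1 of 9 called higher (Slc31a2). The ATF4 element TGATGNAAN, searched on both strands, was in 3 of 114 (2.63%) and in 4.5% of the 27025 genes, and Slc1a4 was the 1 gene called lower that held it. The forkhead motif TGTTTAC, of the kind FOXA2 binds, was in 1 of 114 (0.877%), that of Slc5a6, and in 4.05% of the 27025 genes, on either strand. The promoter stretches of 3 genes called lower are shown because each holds the E-box (capitals) before a RefSeq start. The Slc29a1 stretch lies within the GENCODE span of the gene given above, and overlap with exons was not checked. All 3 are written 5′ to 3′ on the minus strand, that of the gene.
Slc25a1, chr16:17928413-17928469: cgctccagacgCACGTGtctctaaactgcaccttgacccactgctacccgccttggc
Slc29a1, chr17:45595276-45595361: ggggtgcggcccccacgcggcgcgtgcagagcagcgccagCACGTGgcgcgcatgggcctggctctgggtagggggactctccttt
Slc22a4, chr11:54028287-54028354: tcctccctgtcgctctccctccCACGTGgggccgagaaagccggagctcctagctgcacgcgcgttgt
The stretches share the 6 capital letters, and a match is a description of the sequence, not a bound site.

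Among ion carriers, Slc4a5 had the largest drop. Slc4a5 (NBCe2, a sodium bicarbonate cotransporter; chr6:83219828-83304945, plus strand) had 18.3, 22.7, 19.3 and 14.7 CPM in negative libraries and 6.08, 6.18, 6.64 and 3.77 CPM in low libraries. For Slc4a5, medium libraries had 5.31, 2.31, 3.98 and 4.81 CPM and high libraries 4.82, 5.56, 4.62 and 2.43 CPM. The low gate was already below every negative library: log2 fold changes against negative were -1.72, -2.19 and -2.07 in the low, medium and high gates (edgeR adjusted p = 4.22e-05, 6.96e-07 and 1.1e-06), and neither medium versus low nor high versus medium was called. Slc4a7 (NBCn1, an electroneutral relative; chr14:14702279-14799940, plus strand) was higher in the high gate, with 69.3, 76.9, 56.0 and 48.7 CPM, against 34.7, 46.4, 53.9 and 47.4 CPM in the negative gate (log2 fold change 0.46 with SE 0.144, edgeR adjusted p = 0.0242). The ranges overlapped at high 4, and Slc4a7 lost its call without negative 1, high 1 or high 2 (edgeR adjusted p 0.0860 to 0.117), without negative 3 and high 2 together (0.0632) and after thinning (0.0601).

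Slc24a3 (NCKX3, which exchanges calcium for sodium and potassium; chr2:145167754-145642166, plus strand) had the largest rise of the 148. It had 3.40, 3.65, 4.73 and 3.17 CPM in negative libraries and 5.07, 9.18, 4.80 and 6.53 CPM in low libraries. For Slc24a3, medium libraries had 5.31, 9.57, 6.05 and 9.77 CPM and high libraries 10.6, 10.1, 7.40 and 13.1 CPM. All high libraries lay above all negative ones (log2 fold change 1.46 with SE 0.286, edgeR adjusted p = 4.28e-04), and gate means went up at each step. Slc24a3 was also called in the medium gate (log2 fold change 1.06 with SE 0.285, edgeR adjusted p = 0.0155), a call lost without negative 4, medium 2 or medium 4 (edgeR adjusted p 0.0515 to 0.0707).

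Of the other ion genes, Slc4a2 (AE2, a chloride bicarbonate exchanger) was higher in the medium gate, with 33.3, 34.1, 35.6 and 36.1 CPM, against 20.1, 21.4, 23.7 and 29.0 CPM in the negative gate (log2 fold change 0.56 with SE 0.144, edgeR adjusted p = 0.0117). Slc4a2 lost this call without negative 1 (edgeR adjusted p = 0.0535) and after thinning (0.0939). Slc4a8, a sodium-driven relative, was called lower in the medium gate (log2 fold change -0.77 with SE 0.248, edgeR adjusted p = 0.0480), a call lost in 17 of 24 alternatives. In 12 of these 1 library was left out, namely negative 1, negative 3, negative 4, low 1, low 2, low 3, low 4, medium 1, medium 3, medium 4, high 1 or high 4 (edgeR adjusted p 0.0512 to 0.171). The others were the fits with no filter (0.0649), with the replicate block (0.0614), after thinning (0.128), of the 2 gates alone (0.0772), and without negative 3 and high 2 together (0.122). The chloride importer Slc12a2 was not called in high versus negative (log2 fold change 0.06 with SE 0.231, edgeR adjusted p = 0.902). Among all genes tested, 8.42% were called higher and 8.55% lower in high versus negative. Of 6 tested genes of the sodium pump, which sets the sodium gradient that many carriers use, 1 was higher in the high gate and 0 lower. This was Fxyd6, a regulatory subunit, with 239 ± 34.0 CPM in the high gate and 107 ± 13.1 CPM in the negative gate (log2 fold change 1.16 with SE 0.114, edgeR adjusted p = 6.36e-09).

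Both copper carriers were higher and a pair of zinc carriers lower in the high gate. Slc31a1 (CTR1, the high-affinity copper importer; chr4:62360727-62391769, plus strand) had 40.0, 49.3, 41.3 and 45.9 CPM in negative libraries and 36.3, 57.9, 50.4 and 46.1 CPM in low libraries. For Slc31a1, medium libraries had 70.1, 46.7, 66.9 and 63.3 CPM and high libraries 73.2, 70.8, 68.3 and 59.7 CPM. Slc31a2, its relative on endosomes and lysosomes, lies near it on the same strand (chr4:62262562-62298411, plus strand) and had 11.8, 9.90, 7.83 and 12.0 CPM in negative libraries and 8.74, 14.3, 14.5 and 12.8 CPM in low libraries. For Slc31a2, medium libraries had 21.6, 20.1, 21.6 and 20.8 CPM and high libraries 17.8, 19.0, 18.7 and 17.3 CPM. High libraries lay above all negative ones for both genes. Slc31a1 had a log2 fold change of 0.63 with SE 0.142 and edgeR adjusted p = 0.00213. Slc31a2 had a log2 fold change of 0.80 with SE 0.185 and edgeR adjusted p = 0.00257. For Slc31a2 the step lay between the low and the medium gate, the 1 call among the 148 in that comparison (log2 fold change 0.75 with SE 0.178, edgeR adjusted p = 0.0361), and medium libraries lay above all high ones. This step lost its call without low 1, low 3, low 4, medium 1, medium 2, medium 3, medium 4, high 1 or high 3 (edgeR adjusted p 0.0510 to 0.194), without low 1 and medium 2 together (0.202), after thinning (0.314) and in a fit of the low and medium gates alone (0.0811). Slc31a1 was called in the medium gate too (log2 fold change 0.48 with SE 0.141, edgeR adjusted p = 0.0281), and lost that call without negative 1, negative 3, medium 1, medium 3 or medium 4 (edgeR adjusted p 0.0653 to 0.0907), without negative 3 and high 2 together (0.0826) and after thinning (0.0800).

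Slc39a4 (ZIP4, a zinc importer known from the intestine; chr15:76612383-76617384, minus strand) had 17.3, 24.0, 16.0 and 13.0 CPM in negative libraries and 6.84, 7.42, 7.34 and 6.09 CPM in low libraries. For Slc39a4, medium libraries had 10.0, 9.57, 7.78 and 6.37 CPM and high libraries 6.65, 12.4, 7.86 and 6.39 CPM. It stepped down between negative and low, and no library of the 3 gates with FOXA2 reached the lowest negative one (log2 fold change -1.34 with SE 0.231, edgeR adjusted p = 4.1e-04 for low versus negative). Against negative, the high gate had a log2 fold change of -1.08 with SE 0.235 and edgeR adjusted p = 0.00143. Slc39a14 (ZIP14, which takes up zinc, iron and manganese; chr14:70303469-70351425, minus strand) averaged 13.0 ± 2.62 CPM in the high gate and 19.3 ± 4.01 CPM in the negative gate, with overlap (log2 fold change -0.59 with SE 0.194, edgeR adjusted p = 0.0331). Slc39a14 lost its call without negative 1, negative 3, high 1 or high 3 (edgeR adjusted p 0.0536 to 0.144), and without negative 3 and high 2 together (0.162). The iron importer Slc11a2 and the zinc exporter Slc30a1 were not called, at 17.8 ± 3.28 and 6.33 ± 1.33 CPM in the high gate and 20.5 ± 3.09 and 5.30 ± 2.40 CPM in the negative gate.

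In a list of 12 tested genes of metal handling, 3 were higher in the high gate and 1 lower, where 8.42% and 8.55% of all genes were. Fth1, a chain of the iron store ferritin, was higher, with 1868 ± 95.9 CPM in the high gate and 1436 ± 32.5 CPM in the negative gate (log2 fold change 0.38 with SE 0.0900, edgeR adjusted p = 0.00321). Aco1, an iron-sensing RNA-binding protein, was higher too (log2 fold change 0.55 with SE 0.130, edgeR adjusted p = 0.00321), as was Heph, a copper-containing iron oxidase (3.23 ± 3.11 CPM in the high gate and 0.203 ± 0.181 CPM in the negative gate). Lower was Mt2, a metallothionein that binds zinc and copper (979 ± 53.5 CPM in the high gate and 1346 ± 65.4 CPM in the negative gate, log2 fold change -0.46 with SE 0.0927, edgeR adjusted p = 6.07e-04). Mt1, the other metallothionein listed, was not called (log2 fold change -0.09 with SE 0.0851, edgeR adjusted p = 0.545). Ftl1, the other ferritin chain listed, was not called either (log2 fold change -0.01 with SE 0.0823, edgeR adjusted p = 0.976). The copper chaperone Atox1 and the copper pump Atp7a were not called (edgeR adjusted p = 0.223 and 0.995).

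**Figure D3:**
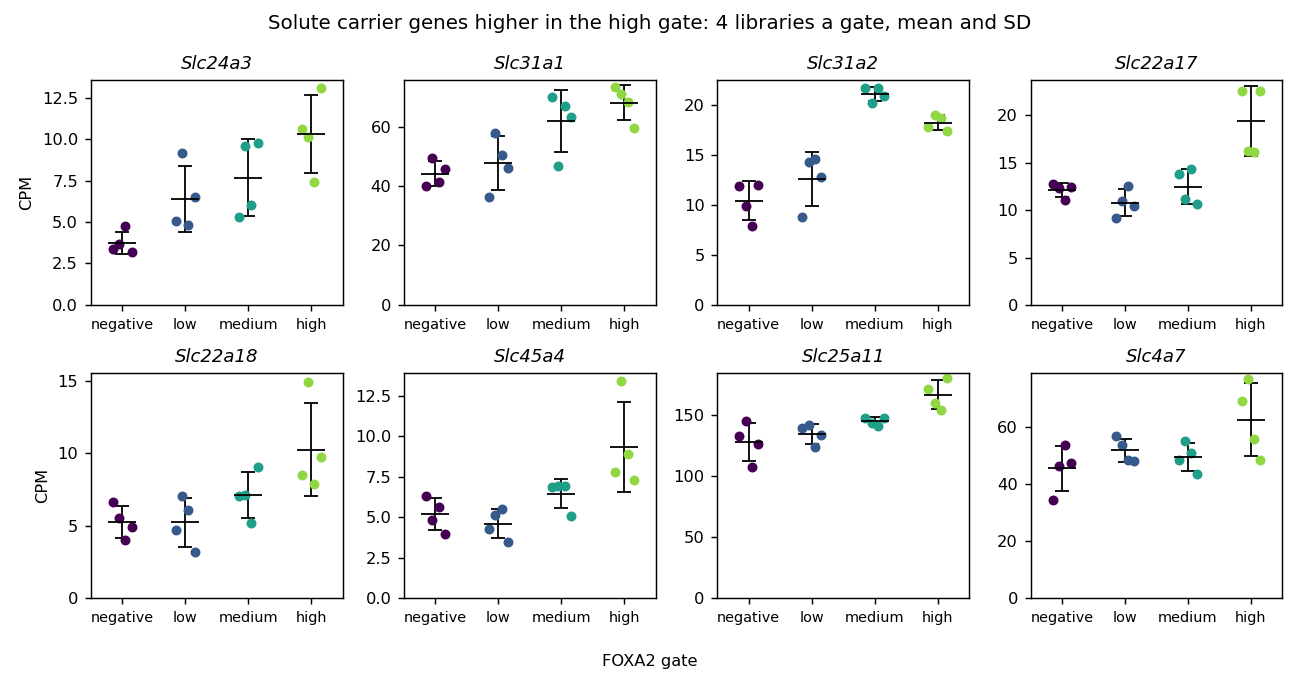
CPM of 8 solute carrier genes called higher in the high than in the negative gate, by gate (x axis); points are libraries, bars the mean and SD of 4 libraries. Slc24a3 is between 7.40 and 13.1 CPM in the high gate and at most 4.73 in the negative gate, Slc31a2 has its step at the medium gate, and high 2 is the top point of the high gate for Slc22a18 and Slc45a4.

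Among mitochondrial carriers, 2 exchangers of ADP and ATP and the citrate carrier were lower in the high gate. Slc25a5 (ANT2, an ADP and ATP exchanger; chrX:36795651-36798807, plus strand) had 247, 218, 216 and 185 CPM in negative libraries and 138, 159.7, 172 and 151 CPM in low libraries. For Slc25a5, medium libraries had 173, 128, 161 and 127 CPM and high libraries 124, 151, 134 and 132 CPM. Each gate with FOXA2 lay below every negative library (log2 fold change -0.68 with SE 0.117, edgeR adjusted p = 8.9e-05 for high versus negative). Slc25a5 in the low gate had a log2 fold change of -0.48 with SE 0.116 and edgeR adjusted p = 0.0137, a call lost without negative 1 or low 1 (edgeR adjusted p 0.0590 to 0.0746). Slc25a4 (ANT1, the exchanger of heart, muscle and brain; chr8:46206797-46211284, minus strand) fell to 529, 487, 581 and 526 CPM in the high gate, against 729, 787, 685 and 657 CPM in the negative gate (log2 fold change -0.43 with SE 0.104, edgeR adjusted p = 0.00386). Slc25a1, the citrate carrier that feeds lipid synthesis (chr16:17925223-17928219, minus strand), had 365, 362, 299 and 297 CPM in negative libraries and 250.4, 217, 221 and 241 CPM in low libraries. For Slc25a1, medium libraries had 228, 235, 205 and 199 CPM and high libraries 225, 239, 237 and 226 CPM. It was lower by a like amount in all 3 gates with FOXA2, at -0.51, -0.61 and -0.51 against negative (edgeR adjusted p = 0.00137, 7.07e-05 and 3.57e-04).

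Slc25a11, the carrier of oxoglutarate and malate (chr11:70644196-70647479, minus strand), was higher in the high gate, with 172, 160.1, 154 and 181 CPM, against 133, 145, 108 and 126 CPM in the negative gate (log2 fold change 0.38 with SE 0.103, edgeR adjusted p = 0.00968). Slc25a11 lost its call without negative 3 (edgeR adjusted p = 0.0536), and without negative 3 and high 2 together (0.0705). Slc25a12, an aspartate and glutamate carrier that works in the same malate-aspartate shuttle, was lower (14.9 ± 2.35 CPM in the high gate and 21.7 ± 1.48 CPM in the negative gate, log2 fold change -0.54 with SE 0.168, edgeR adjusted p = 0.0242); it is named after its values were seen. Slc25a12 lost its call without negative 3 or high 3 (edgeR adjusted p 0.0648 to 0.115), without negative 3 and high 2 together (0.0940) and with no filter (0.0548). Slc25a3, the phosphate carrier, measured 1001 ± 38.9 CPM in the high gate and 945 ± 66.4 CPM in the negative gate and was not called (log2 fold change 0.08 with SE 0.0987, edgeR adjusted p = 0.641).

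Slc25a21, an oxodicarboxylate carrier (chr12:56712634-57197472, minus strand), was called higher in the medium gate, with 17.1, 8.25, 19.7 and 15.7 CPM, against 9.72, 5.56, 6.55 and 9.21 CPM in the negative gate (log2 fold change 0.95 with SE 0.246, edgeR adjusted p = 0.0119). Slc25a21 lost this call without negative 2 or medium 3 (edgeR adjusted p 0.0543 to 0.0579) and after thinning (0.1001). Its last 500 bases overlap Pax9 on the other strand, and reads of the 2 genes cannot be told apart. Pax9 averaged 3.76, 9.85, 8.96 and 4.27 CPM from negative to high. Both it and Slc25a21, at 7.76, 13.3, 15.2 and 9.95 CPM, had their larger means in the low and medium gates.

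**Figure D4:**
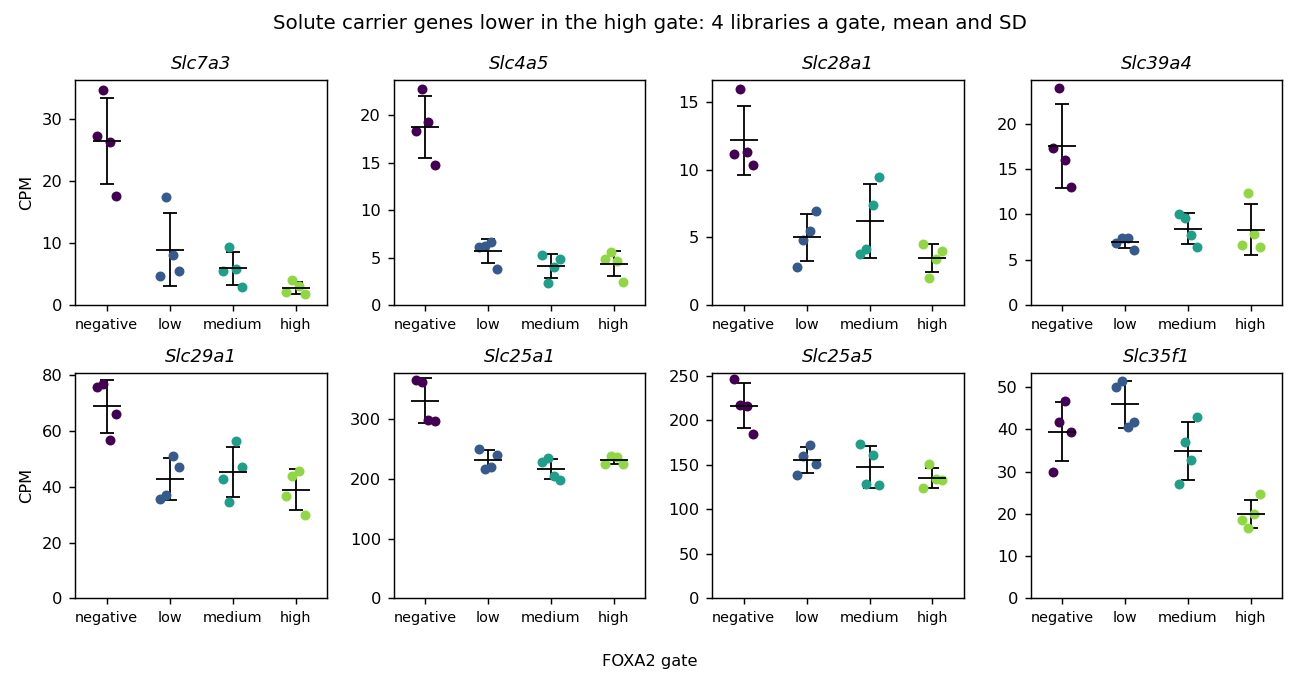
CPM of 8 solute carrier genes called lower in the high than in the negative gate, by gate (x axis); points are libraries, bars the mean and SD of 4 libraries. In 7 of the 8 the low gate is already below the negative gate, as for Slc4a5 with means of 5.67 and 18.8 CPM. These 7 are the genes called lower in low versus negative, so this early step comes from the choice of panels. Of the 21 genes called lower in high versus negative, only these 7 were called lower in the low gate. Slc35f1 has 46.0 CPM in the low gate and its lowest mean, 20.0, in the high gate.

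Carriers of organic ions and vesicular amines split, with 2 higher and 3 lower of 9. Slc22a17 (a receptor for the siderophore-binding protein lipocalin 2; chr14:54906304-54913132, minus strand) had 22.6, 16.2, 16.2 and 22.5 CPM in the high gate and 12.8, 12.3, 11.1 and 12.4 CPM in the negative gate, and its low and medium libraries stayed at 14.3 CPM or under (log2 fold change 0.67 with SE 0.184, edgeR adjusted p = 0.0111). Slc22a17 lost its call without high 1 (edgeR adjusted p = 0.0580). Slc22a18, an imprinted gene of the organic cation family (chr7:143473736-143499334, plus strand), had 8.48, 14.9, 7.86 and 9.74 CPM in the high gate and 6.64, 5.56, 4.00 and 4.91 CPM in the negative gate (log2 fold change 0.94 with SE 0.280, edgeR adjusted p = 0.0186). Slc22a18 lost its call without negative 3, negative 4 or high 2 (edgeR adjusted p 0.0518 to 0.109), without negative 3 and high 2 together (0.227) and after thinning (0.0797).

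Slc18b1, a vesicular polyamine carrier (chr10:23796986-23827968, plus strand), fell to 13.5, 12.6, 11.9 and 10.7 CPM in the high gate, against 18.5, 19.3, 18.9 and 23.1 CPM in the negative gate (log2 fold change -0.71 with SE 0.179, edgeR adjusted p = 0.00538). Slc10a7, a member of the bile acid carrier family (chr8:78509346-78734003, plus strand), fell to 13.1, 15.4, 16.0 and 8.52 CPM, against 17.5, 24.5, 24.2 and 17.3 CPM in the negative gate (log2 fold change -0.62 with SE 0.204, edgeR adjusted p = 0.0328). Slc10a7 lost its call without negative 2, negative 3, high 1 or high 4 (edgeR adjusted p 0.0779 to 0.122), and without negative 3 and high 2 together (0.0952). Slc22a4 (OCTN1, the ergothioneine carrier; chr11:53983123-54028090, minus strand) had 4.82, 2.78, 4.62 and 2.74 CPM in the high gate and 9.56, 9.38, 4.00 and 9.93 CPM in the negative gate (log2 fold change -1.09 with SE 0.336, edgeR adjusted p = 0.0225). Negative 3 lay among the high libraries, and Slc22a4 lost its call without negative 1, negative 2, negative 4, high 2 or high 4 (edgeR adjusted p 0.0551 to 0.0724) and after thinning (0.0577).

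Slc20a1 (PiT1, a sodium phosphate cotransporter; chr2:129198764-129211616, plus strand) had 20.2, 22.4, 25.5 and 21.3 CPM in negative libraries and 19.9, 16.1, 19.2 and 16.0 CPM in low libraries. For Slc20a1, medium libraries had 15.7, 18.5, 16.8 and 13.9 CPM and high libraries 12.0, 6.32, 15.9 and 11.9 CPM. Its high libraries lay below all negative ones (log2 fold change -0.93 with SE 0.198, edgeR adjusted p = 0.00109), while its relative Slc20a2 was not called, at 53.2 ± 4.37 CPM in the high gate and 59.4 ± 5.12 CPM in the negative gate (log2 fold change -0.16 with SE 0.126, edgeR adjusted p = 0.447). Slc35f1, a carrier of the nucleotide sugar family without a settled substrate (chr10:52690533-53111622, plus strand), had 30.0, 41.7, 46.8 and 39.4 CPM in negative libraries and 50.1, 51.4, 40.5 and 41.8 CPM in low libraries. For Slc35f1, medium libraries had 27.0, 36.9, 32.7 and 43.0 CPM and high libraries 18.6, 16.7, 20.0 and 24.7 CPM. Its means were 39.5, 46.0, 34.9 and 20.0 CPM from negative to high, and libraries of the first 3 gates overlapped. Its high libraries lay below all others (log2 fold change -0.99 with SE 0.166, edgeR adjusted p = 6.22e-05 for high versus negative). Against the medium gate, the high gate had a log2 fold change of -0.82 with SE 0.167 and edgeR adjusted p = 0.00778. It was the 1 solute carrier called between high and medium, and this call was lost without medium 4 (edgeR adjusted p = 0.0659). The other 18 genes of its class, among them the Golgi carriers Slc35a4 and Slc35b2 with log2 fold changes of 0.05 and 0.10, had no call in high versus negative.

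Sugar carriers gave 1 call in each direction. Slc45a4, placed by its family among proton-coupled sugar carriers (chr15:73577424-73645762, minus strand), had 7.82, 13.4, 8.94 and 7.30 CPM in the high gate and 6.32, 4.86, 5.64 and 3.99 CPM in the negative gate (log2 fold change 0.85 with SE 0.263, edgeR adjusted p = 0.0231). Slc45a4 lost its call without negative 2, negative 4 or high 2 (edgeR adjusted p 0.0573 to 0.124), without negative 3 and high 2 together (0.145) and after thinning (0.103). Slc5a6, which belongs to the sodium-glucose family but carries biotin and pantothenate, averaged 9.21 ± 2.10 CPM in the high gate and 13.5 ± 0.698 CPM in the negative gate (log2 fold change -0.57 with SE 0.199, edgeR adjusted p = 0.0441). Slc16a13, of the monocarboxylate family, averaged 14.1 ± 2.90 CPM in the high gate and 20.3 ± 2.28 CPM in the negative gate (log2 fold change -0.52 with SE 0.168, edgeR adjusted p = 0.0296). Both are named after their values were seen. Slc5a6 lost its call in 13 of 24 alternatives, 9 of them without 1 library, namely negative 1, negative 2, negative 3, negative 4, low 3, low 4, high 1, high 2 or high 3 (edgeR adjusted p 0.0520 to 0.160). Slc16a13 lost its call in 8 of 24, 5 of them without 1 library, namely negative 1, negative 3, high 2, high 3 or high 4 (edgeR adjusted p 0.0580 to 0.122). Slc2a8 (GLUT8, an intracellular glucose carrier) was at 35.6 ± 3.66 CPM in the high gate and 26.4 ± 6.33 CPM in the negative gate and was not called (log2 fold change 0.43 with SE 0.199, edgeR adjusted p = 0.145). Slc16a6, a further monocarboxylate family member, was lower in the medium gate, with 15.5, 16.7, 18.0 and 16.4 CPM, against 19.4, 26.2, 32.0 and 22.4 CPM in the negative gate (log2 fold change -0.58 with SE 0.173, edgeR adjusted p = 0.0307). Slc16a6 lost this call without negative 2, negative 3, medium 1, medium 2 or medium 4 (edgeR adjusted p 0.0565 to 0.150), after thinning (0.144), without negative 3 and high 2 together (0.145) and in a fit of the medium and negative gates alone (0.0580).

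Some genes of 2 lists of partners and relatives were called, where 8.42% of all genes tested were called higher and 8.55% lower. Of 8 tested chaperones and trafficking regulators, 2 were higher in the high gate, 1 was lower and 5 were not called. Emb (embigin, a chaperone of monocarboxylate carriers) measured 158 ± 7.68 CPM in negative, 215 ± 11.2 in low, 325 ± 10.2 in medium and 423 ± 29.3 in high libraries, with an edgeR adjusted p of 1.4e-12 for high versus negative. Its relative Bsg (basigin) was higher by less (log2 fold change 0.27 with SE 0.0867, edgeR adjusted p = 0.0293), and Sgk1, a kinase that keeps ion carriers at the surface, was lower (log2 fold change -1.76 with SE 0.339, edgeR adjusted p = 4.66e-04). Of 16 tested genes in a list of SLC proteins and relatives under other symbols, not all of them transporters, 1 was higher and 2 lower. Unc93b1, a trafficking protein of toll-like receptors, was higher (log2 fold change 1.43 with SE 0.467, edgeR adjusted p = 0.0322). Leprotl1 was lower (log2 fold change -0.37 with SE 0.115, edgeR adjusted p = 0.0261), and so was Mfsd2a, a lipid carrier of the blood-brain barrier (log2 fold change -1.64 with SE 0.579, edgeR adjusted p = 0.0498).

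Against the negative gate, fewer solute carriers were called at lower FOXA2. In the medium gate 5 were higher (3.38%, against 4.24% of all genes tested) and 10 lower (6.76%, against 4.22%). The count of 5 was 3 without negative 1, medium 3 or medium 4, and 2 after thinning. In the low gate 0 were higher by edgeR (9 at an unadjusted p under 0.05, and 0 by DESeq2), against 1.47% of all genes, and 7 were lower (4.73%, against 2.29%). These 7 were Slc25a5, Slc25a1, Slc29a1, Slc28a1, Slc39a4, Slc7a3 and Slc4a5, and all 7 were also called lower in the high gate. The count of higher genes in the low gate was 1 without negative 4 or medium 2. The comparisons with negative share its 4 libraries, so their calls are not independent.

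Between neighbouring gates, calls were few. In medium versus low, 1 was higher (0.676%, against 0.49% of all genes), the copper carrier Slc31a2, and 0 were lower by edgeR (2 unadjusted, 0 by DESeq2), against 0.223%. In high versus medium, 0 were higher by edgeR (7 unadjusted, 0 by DESeq2), against 0.367%, and 1 was lower (0.676%, against 0.547%), Slc35f1. The lower count was 2 without medium 2 and 0 without medium 4. No solute carrier was highest at an intermediate gate, called there against both the negative and the high gate, by edgeR or DESeq2 (0 of 148, against 0.158% of all genes).

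The high and the low gate were compared directly as well. In high versus low, 6 solute carriers were higher (4.05%, against 3.79% of all genes tested) and 5 lower (3.38%, against 3.08%), shares near those of all genes. Slc22a17 was higher (mean 19.4 CPM in the high gate and 10.8 CPM in the low gate, log2 fold change 0.84 with SE 0.186, edgeR adjusted p = 0.00323) and Slc35f1 lower (log2 fold change -1.21 with SE 0.166, edgeR adjusted p = 7.28e-06), and both kept the call under all 24 alternatives. The other calls upwards were Slc45a4 (log2 fold change 1.02 with SE 0.265, edgeR adjusted p = 0.0142), Slc22a18 (log2 fold change 0.95 with SE 0.279, edgeR adjusted p = 0.0331), Slc31a1 (log2 fold change 0.52 with SE 0.141, edgeR adjusted p = 0.0207), Slc25a39 and Slc30a2.

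Slc25a39, which brings glutathione into mitochondria (chr11:102402985-102407946, minus strand), had 283, 303, 269 and 289.6 CPM in negative libraries and 285, 254, 275 and 274 CPM in low libraries. For Slc25a39, medium libraries had 334, 309, 297 and 323 CPM and high libraries 333, 325, 355 and 329 CPM. Its high libraries lay above all low ones (log2 fold change 0.30 with SE 0.0888, edgeR adjusted p = 0.0336), and its high versus negative comparison was not called (edgeR adjusted p = 0.0770). Slc30a2 (ZnT2, a zinc carrier of vesicles; chr4:134343181-134354484, plus strand), named after its values were seen, had 6.65, 10.4, 12.8 and 11.9 CPM in the high gate and 6.59, 7.77, 3.81 and 3.05 CPM in the low gate, with overlap (log2 fold change 0.97 with SE 0.287, edgeR adjusted p = 0.0345). Downwards, the others were Slc7a3 (log2 fold change -1.65 with SE 0.447, edgeR adjusted p = 0.0303), Slc7a5 (log2 fold change -1.02 with SE 0.302, edgeR adjusted p = 0.0353), Slc18b1 (log2 fold change -0.63 with SE 0.180, edgeR adjusted p = 0.0292) and Slc16a13 (log2 fold change -0.57 with SE 0.167, edgeR adjusted p = 0.0329).

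These counts rested on single libraries. The higher count was 1 without low 4 or high 2 and 3 without high 3. The lower count was 1 without low 3, 2 without low 4 or high 2, and 3 without high 1, high 3 or high 4. Without negative 3 and high 2 together, 1 was higher and 1 lower. Each of the 9 genes other than Slc22a17 and Slc35f1 lost its call in 3 to 10 of 24 alternatives.

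Over the 6 comparisons, 37 of the 148 genes were called at least once and 111 in none. The share of all tested genes called at least once was not worked out, so this count has no background to be read against. The sum over all 148 genes was 5784 ± 58.6 CPM in the high gate and 6110 ± 113 CPM in the negative gate (SD, n = 4), with mitochondrial carriers at 2867 ± 47.4 and 3061 ± 136 CPM of it. The ion class summed to 570 ± 26.5 CPM in the high gate and 542 ± 37.4 CPM in the negative gate, with overlap. This sum includes Slc9a3r1, Slc9a3r2 and Slc4a1ap, which are not transporters. In the same gates Slc9a3r1 averaged 151 ± 23.9 and 129 ± 6.64 CPM. Slc9a3r2 averaged 42.8 ± 16.6 and 51.8 ± 9.69 CPM, and Slc4a1ap 54.4 ± 7.06 and 54.7 ± 6.47 CPM. Metal carriers summed to 494 ± 4.09 and 474 ± 12.4 CPM. Vitamin and choline carriers summed to 96.1 ± 4.17 CPM in the high gate and 88.6 ± 5.76 CPM in the negative gate, and their largest members Slc52a2 (a riboflavin carrier), Slc44a2 and Slc46a1 (a folate carrier) had log2 fold changes of 0.06, 0.14 and 0.11. Slc6a6, the taurine carrier, averaged 77.3 ± 8.55 CPM in the high gate and 97.7 ± 13.1 CPM in the negative gate (log2 fold change -0.34 with SE 0.135, edgeR adjusted p = 0.0875), and the creatine carrier Slc6a8 7.56 ± 1.71 and 8.47 ± 0.297 CPM.

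**Figure D5:**
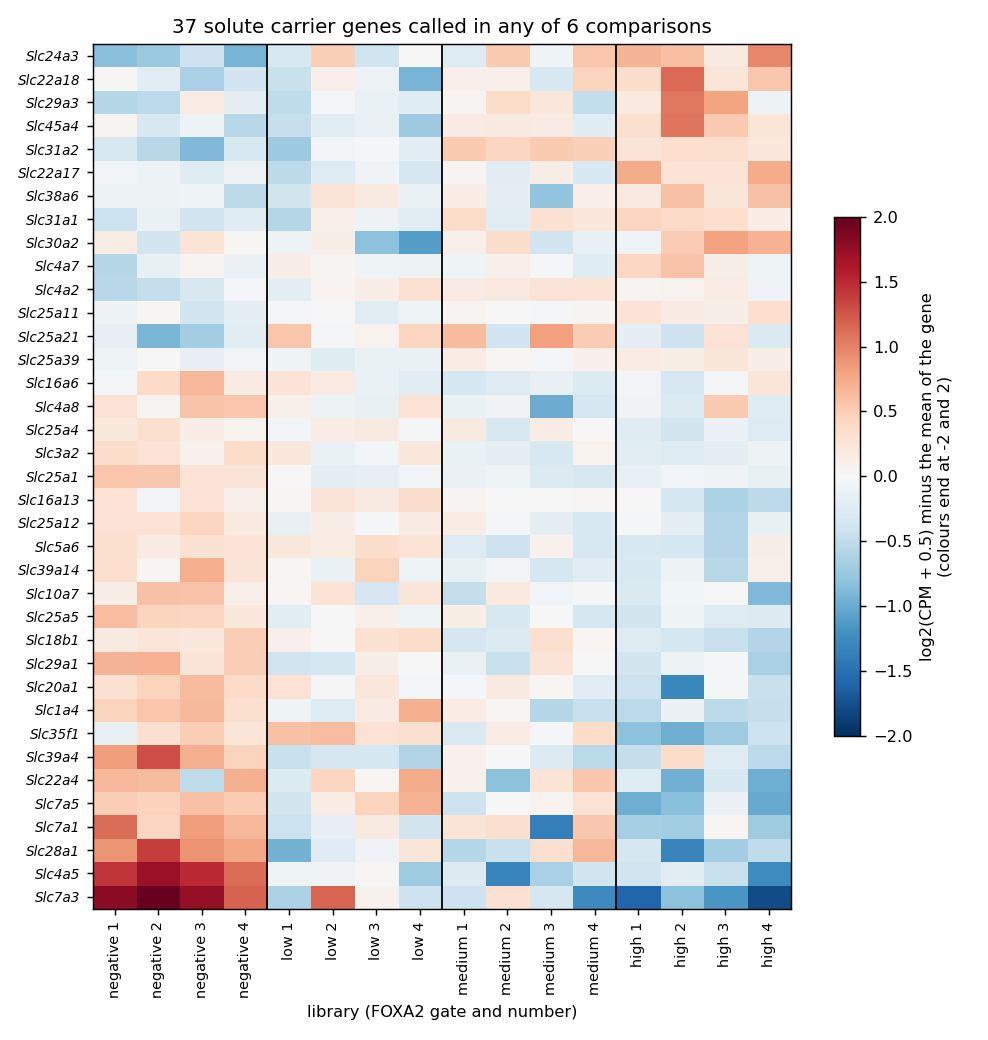
The 37 called solute carrier genes (rows, ordered by their change in high versus negative) in all 16 libraries (columns, by gate): colour is log2(CPM + 0.5) minus the mean of the gene over the libraries, red above and blue below it, with colours ending at -2 and 2. Slc7a3, Slc4a5 and Slc28a1 at the bottom are red in the 4 negative libraries, and high 2 holds the deepest red of Slc22a18, Slc29a3 and Slc45a4, at 14.9, 15.4 and 13.4 CPM.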

How the data were processed

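RNA was measured by BRB-seq, a 3′ RNA-seq method with early barcoding and pooling, in 16 libraries grouped by the FOXA2 gate in the labels. What the authors deposited is 1 table of unnormalized counts, whole numbers, over 35976 genes. Per the submitters' processing notes the build was GRCm38, and the tools named there are STARsolo 2.7.9a, cutadapt 1.18 and DESeq2 1.42.0. Which annotation and strand setting were used, and whether molecular identifiers were collapsed, is not given in the sources used here, so floors cover counting error only.

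The counts went into edgeR 4.0.16 (R 4.3.3), where 13891 genes passed the expression filter, libraries were scaled by TMM (factors 0.970 to 1.05), and a robust quasi-likelihood model with the 4 gates was fitted to all 16 libraries. All adjusted p-values are Benjamini-Hochberg values over these genes within a comparison, at 0.05, and the SE of a log2 fold change is its size over the root of F. CPM are counts scaled to library size, as mean ± SD over 4 libraries. Pairs within gates differed beyond sampling noise (chi-square per degree of freedom at least 4.31 over 24 pairs), so none was counted as a duplicate. Gene positions are those of GENCODE M21 on GRCm38, and promoter sequences those of RefSeq on GRCm38.p6. The steps were tested on simulated data.

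Substrate classes follow the family number. The genes, classes and gene lists were chosen with earlier results of these data known. Named genes were the called genes that averaged 5 CPM or more in the higher group, by size of change (14 a direction in high versus negative, 6 in the other comparisons with negative, 4 between neighbouring gates), the 3 with the largest counts in each class, a fixed set of 33, and those next to the count minimum. Alternatives tried were DESeq2 1.42.0, RLE scaling, the test of unfiltered counts, thinning to the smallest total, a block for the replicate number, fits of only the 2 groups compared, fits without each library, and 2 fits without pairs of libraries that lay apart, of which that without negative 3 and high 2 was chosen after seeing the data. High versus low was fitted in the same model, and the choice to report it and its alternatives was made after seeing the data.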

Additional observations from a re-analysis of the deposited data

Results flagged for a closer look

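In 4 libraries of a gate, the highest or lowest was set against the other 3, for 75 solute carrier genes and 13 class sums. Of 352 such groups, 14 had a library whose gap to its neighbour, as a share of the range, exceeded Dixon's 95% critical value, a rate below the 1 in 20 that chance gives.

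Among genes called lower in the high gate, single libraries narrowed or widened the change. Slc7a1 and Slc7a5, both amino acid carriers, had their high outlier in the same library: high 3 measured 4.93 CPM for Slc7a1 (others 2.74 to 2.83) and 4.93 CPM for Slc7a5 (others 2.43 to 2.78). Slc1a4, a neutral amino acid carrier, was at 7.08 CPM in high 2 (others 5.16 to 5.48). Slc22a4, the ergothioneine carrier, was at 4.00 CPM in negative 3 (others 9.38 to 9.93). Slc28a1, the pyrimidine nucleoside carrier, was at 16.0 CPM in negative 2 (others 10.3 to 11.3).

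Among genes called higher, Slc38a6 was at 8.60 CPM in negative 4 (others 11.6 to 11.8), and Slc45a4 at 5.10 CPM in medium 4 (others 6.89 to 6.93).

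The remaining genes were not called. Slc2a8, the intracellular glucose carrier, was at 30.2 CPM in high 3 (others 36.7 to 37.9) and at 35.8 CPM in negative 2 (others 22.4 to 24.6). Medium 2, which lay apart on the third principal component, had 88.6 CPM of the glutamine carrier Slc38a2 (others 64.1 to 65.7) and 14.0 CPM of the iron importer Slc11a2 (others 21.1 to 22.1). Slc26a8, near the count minimum, was at 11.0 CPM in negative 4 (others 4.37 to 5.18). Of the class sums, carriers of fatty acids, bile acids, organic ions and vesicular amines summed to 121 CPM in low 4 (others 96.6 to 98.5), and nucleotide sugar carriers to 565 CPM in low 2 (others 602 to 608).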

How the results depend on the processing

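Of 66 calls of single genes, 66 held with RLE scaling and 66 with DESeq2, 65 with the replicate block, 60 without a filter, 58 with only the 2 groups compared, 63 without low 1 and medium 2, 49 after thinning to the smallest total and 42 without negative 3 and high 2; leaving out 1 library lost 145 calls and kept 911. The alternatives for high versus low were chosen after seeing the data. In these fits 0 calls changed sign. Counts of called solute carriers moved by more than 1.5 times as follows: higher in low versus negative, 1 with no filter (Slc25a21) and 1 without low 1 and medium 2 (Slc4a2); lower in high versus medium, 2 with no filter (Slc7a3 added) and 2 without low 1 and medium 2 (Slc25a4 added); higher in medium versus negative, 2 after thinning; higher in medium versus low, 0 after thinning, 0 with only the 2 groups compared and 0 without low 1 and medium 2; lower in high versus low, 3 after thinning; higher in high versus negative, 4 without negative 3 and high 2, a fit chosen after seeing the data, which also left 1 higher and 1 lower in high versus low. With each library left out in turn, high versus negative had 5 to 13 higher and 16 to 23 lower, medium versus negative 3 to 5 and 7 to 10, low versus negative 0 to 1 and 5 to 8, medium versus low 0 to 1 and 0 to 0, high versus medium 0 to 0 and 0 to 2, high versus low 1 to 8 and 1 to 7, and 0 to 0 were highest at an intermediate gate. The cause of these shifts was not tested, beyond the smaller counts and samples of the fits themselves.

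Library numbers were not taken as pairs, since deviations of same-numbered libraries correlated above 0.1 in 6 of 24 pairs (-0.082 to 0.216). Whether a number marks a shared factor was not tested: 8 of 16 libraries correlated best with their own number, and negative 4, low 4 and medium 4 correlated at 0.172 to 0.216 with each other. With the replicate block, 13 genes were higher and 22 lower in high versus negative, 5 and 10 in medium versus negative (Slc4a8 lost, at an edgeR adjusted p of 0.0614, and Slc7a7 gained), 1 (Slc25a21) and 8 in low versus negative, 1 and 0 in medium versus low, 0 and 1 in high versus medium, and 8 and 6 in high versus low.

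Depth limits the genes near 3 CPM most, where 1 count was worth up to 0.304 CPM. Changes of genes under the count minimum were not looked at.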
